A study of Mus musculus with 8 samples.

Results

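The genes described are 8 protein-coding neighbours of Gpr176 on mouse chromosome 2, namely Thbs1, Fsip1, Eif2ak4, Srp14, Bmf, Bub1b, Pak6 and Plcb2. The rule that names them uses position on the chromosome, though it was set with earlier results of these data known. All 8 were measured, each by 1 probe set, among 19938 genes with a probe set. RNA of the suprachiasmatic nucleus (SCN), the hypothalamic nucleus that holds the master circadian clock, was hybridised to whole-transcript arrays. The 4 groups were wild type (WT) and Gpr176-/- (KO) at circadian time 6 (CT6, subjective day), and WT and KO at CT18 (subjective night). All mice were of strain C57BL/6J per the labels and were sampled in constant darkness after more than 2 weeks on 12 h of light and 12 h of dark. Laser-dissected SCN of 10 animals was pooled for each array, and a group had 2 such arrays (A and B), so that the 8 arrays stood for 80 animals and p-values measure the spread between pools. The age of the animals, how the Gpr176 allele was made and which part of the gene it lacks are not given in the sources used here.

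A gene next to a targeted locus is inherited together with it, which is why the neighbours of a knocked-out gene are read beside it. The product of Gpr176 is a receptor without a known ligand that signals through the G protein Gz. Its neighbours were named by position and not by a shared pathway. Eif2ak4 encodes GCN2, the kinase that senses uncharged tRNA under amino acid shortage and phosphorylates the translation factor eIF2 alpha. Fsip1 encodes a protein of the sperm fibrous sheath, Thbs1 a secreted matrix glycoprotein, Srp14 a subunit of the signal recognition particle, and Bmf a pro-apoptotic BH3-only protein. Bub1b encodes the spindle checkpoint protein BUBR1, Pak6 a p21-activated kinase and Plcb2 a phospholipase C.

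In the RefSeq order of protein-coding genes, Fsip1 and then Thbs1 lie on one side of Gpr176. On the other side Eif2ak4, Srp14, Bmf, Bub1b and Pak6 follow at places 1 to 5, and Plcb2 lies at place 7. Gpr176 lies on the minus strand and Eif2ak4 on the plus strand, so the 2 genes are transcribed away from each other. The 2 listed starts of Eif2ak4 lie 15198 and 15693 bases from the listed start of Gpr176. The stretches upstream of these starts are shown because Eif2ak4 carried the largest difference between genotypes among the neighbours. They are from RefSeq, build GRCm38.p6, written 5′ to 3′ on the gene's strand, with any match to TGACG, the short form of the cAMP response element, in capitals.
Gpr176, chr2:118373420-118373669, minus strand: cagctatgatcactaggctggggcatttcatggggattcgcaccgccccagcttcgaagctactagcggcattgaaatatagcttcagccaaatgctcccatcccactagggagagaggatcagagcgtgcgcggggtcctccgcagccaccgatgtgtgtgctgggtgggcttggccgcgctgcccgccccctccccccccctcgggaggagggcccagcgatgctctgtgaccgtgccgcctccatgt
Eif2ak4, first start, chr2:118388367-118388616, plus strand: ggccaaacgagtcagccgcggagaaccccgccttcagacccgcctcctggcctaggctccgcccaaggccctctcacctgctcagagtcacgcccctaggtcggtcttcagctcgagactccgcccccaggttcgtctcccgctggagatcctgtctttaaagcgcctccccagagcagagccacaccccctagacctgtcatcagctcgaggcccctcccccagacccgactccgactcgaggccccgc
Eif2ak4, second start, chr2:118388862-118389111, plus strand: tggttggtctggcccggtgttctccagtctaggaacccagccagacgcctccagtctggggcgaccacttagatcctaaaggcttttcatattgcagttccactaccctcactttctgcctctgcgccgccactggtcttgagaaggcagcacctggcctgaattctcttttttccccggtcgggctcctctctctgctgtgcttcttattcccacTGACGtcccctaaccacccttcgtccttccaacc
The RefSeq table held 10 promoters of 6 members, and Thbs1 and Fsip1 had no entry in it. On both strands, CACGTG (the E-box bound by clock activators), TGACGTCA (the full cAMP response element) and TTATGTAA (the D-box) had no match in the 250 bases upstream in any of the 10. TGACG, which is contained in the full element, occurred in 3 of the 10. It was found once upstream of the second Eif2ak4 start, beginning 34 bases before it, and 2 times each upstream of Srp14 and of 1 of the Bmf starts. Over all 32851 promoters of the table, the shares with a match in the same length were 6.02% for CACGTG, 1.55% for TGACGTCA, 0.819% for TTATGTAA and 17.8% for TGACG. A match is a string of letters and not a shown binding site.

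Values are log2 levels after quantile normalization, and each difference is KO minus WT or CT18 minus CT6 on the log2 scale with its standard error. They come from 1 linear model in limma over all 8 arrays. A gene was called at a Benjamini-Hochberg adjusted p under 0.05 over the 12452 genes whose mean level reached 6.82, the 40th percentile of all probe sets. Of the 8 neighbours 6 reached that level. Bub1b (mean 6.74) and Plcb2 (6.21) lay under it and Thbs1 (6.84) just above it. The array medians lay between 7.34 and 7.39 as deposited. Arrays A of WT and KO at CT18 led the second principal component (18.1% of the variance) with scores of 9.17 and -8.86, so results that depend on them are also given without them. Of 11 SCN neuron markers 11 lay above the level filter, against 3 of 7 measured markers of other hypothalamic nuclei.

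Gpr176 itself, the targeted gene, was lower in every KO array than in every WT array. Its difference was -1.30 ± 0.07 at CT6 and -1.31 ± 0.07 at CT18 (limma adjusted p = 9.28e-05 and 8.38e-05). A signal between 8.02 and 8.56 remained in the KO arrays.

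**Figure D1:**
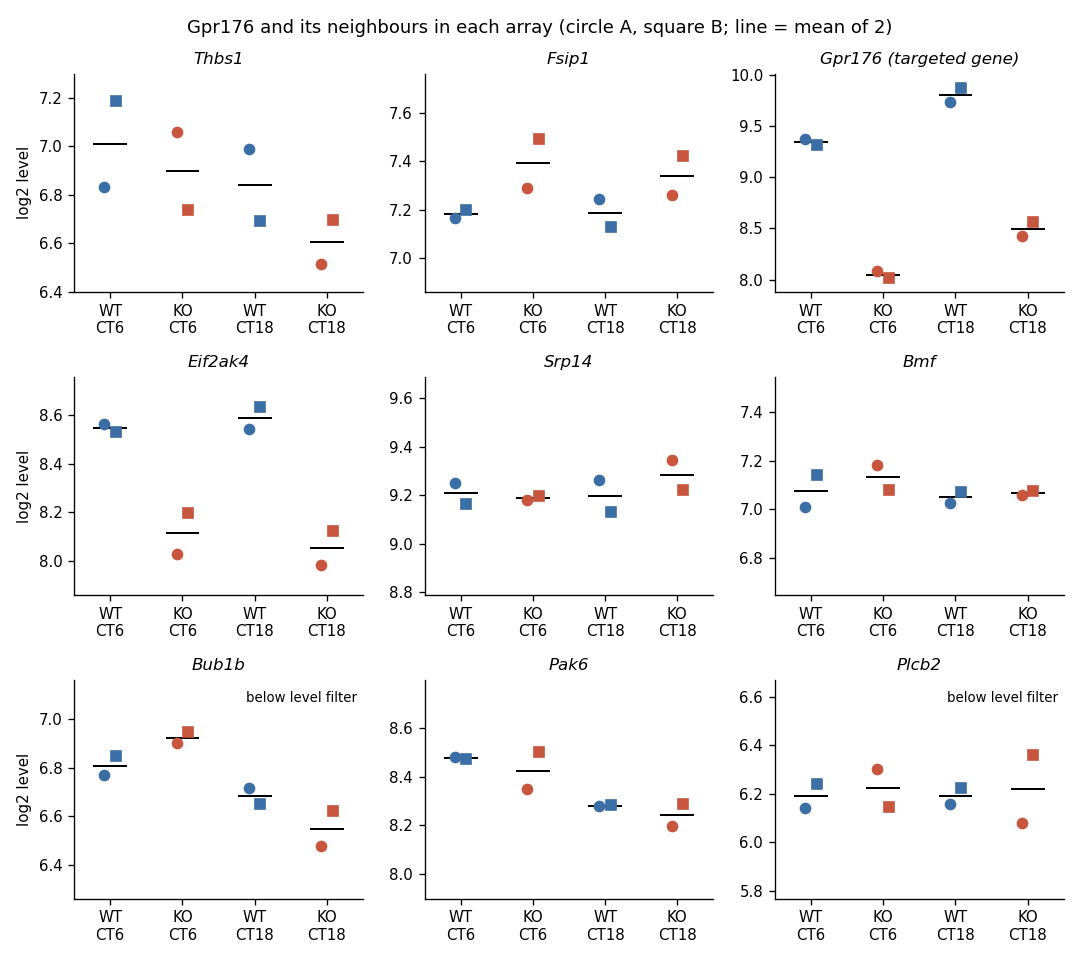
Log2 level of Gpr176 and its 8 neighbours in each array, in chromosomal order, with WT in blue, KO in red, circles for A, squares for B and a line at the mean of the 2 arrays; each panel has its own vertical range. For Eif2ak4 the 4 KO arrays sit between 7.98 and 8.20 and the 4 WT arrays between 8.53 and 8.63.

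Eif2ak4, the next gene after Gpr176, was lower in the knockout over both times together. Its log2 level was 8.56 and 8.53 in WT at CT6 and 8.54 and 8.63 in WT at CT18. In the knockout it was 8.03 and 8.20 at CT6 and 7.98 and 8.12 at CT18. All 4 KO arrays lay below all 4 WT arrays, with a gap of 0.33 between the highest KO and the lowest WT array. Among the genes tested, 4.22% had genotypes that did not overlap over the 8 arrays, in either direction. The difference over both times was -0.48 ± 0.05 (95% interval -0.60 to -0.37), that is, 0.71-fold of the WT level.

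Over both times this difference passed the test across all genes (limma adjusted p = 0.0240). It was the only call among the 6 neighbours tested, where 0.0241% of all genes tested were called (3 genes). By p, Eif2ak4 ranked 2 of 12452, after Gpr176, and by size of the difference it ranked 4. The third called gene, Tmem185b on chromosome 1, a transmembrane protein gene named here after its values were seen, stood at -0.40 ± 0.05 (adjusted p = 0.0425).

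At single times the difference of Eif2ak4 was -0.43 ± 0.07 at CT6 (limma adjusted p = 0.536) and -0.54 ± 0.07 at CT18 (adjusted p = 0.153), and neither passed. At each time 0 of the 6 neighbours tested were called, where 0.00803% of all genes were called, which was Gpr176 alone. At an unadjusted p under 0.05 there were 2 of 6 neighbours at CT6, beside 4.24% of all genes, and 1 of 6 at CT18, beside 12.5%. The change of the genotype difference from CT6 to CT18 was -0.10 ± 0.10 (adjusted p = 0.950), and 0 of the 6 neighbours passed this test (0.00% of all genes). At an unadjusted p under 0.05 the interaction had 0 of 6 neighbours, beside 4.86% of all genes. Within a genotype Eif2ak4 differed between night and day by 0.04 ± 0.07 in WT and -0.06 ± 0.07 in KO (adjusted p = 0.792 and 0.687).

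**Figure D2:**
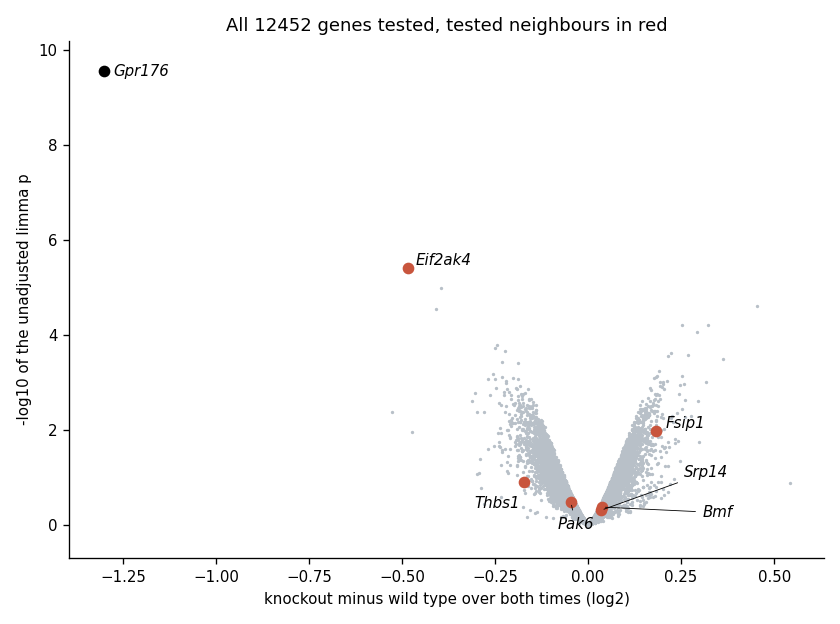
Unadjusted limma p on a -log10 scale against the KO minus WT difference over both times for the 12452 genes tested, as grey points, with the 6 tested neighbours in red and Gpr176 in black. Eif2ak4 stands second from the top at -0.48, Fsip1 lies to the right at 0.18, and Srp14, Bmf and Pak6 lie within 0.05 of 0.

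The size of the Eif2ak4 difference moved little with the arrays used, while its call did not hold throughout. When 1 array was left out the difference ranged from -0.53 to -0.44 and was called in 3 of 8 cases. The limma adjusted p was 0.142 without WT at CT6 A, 0.232 without WT at CT6 B, 0.0739 without WT at CT18 B, 0.0710 without KO at CT6 A and 0.160 without KO at CT18 A. Without both CT18 A arrays the difference was -0.47 ± 0.06 (adjusted p = 0.195). With no level filter, when 19938 genes were tested and 0.00502% were called (Gpr176 alone), the adjusted p was 0.0684. By p its rank stayed between 2 and 5 in the 16 other settings in which the contrast could be fitted.

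**Figure D3:**
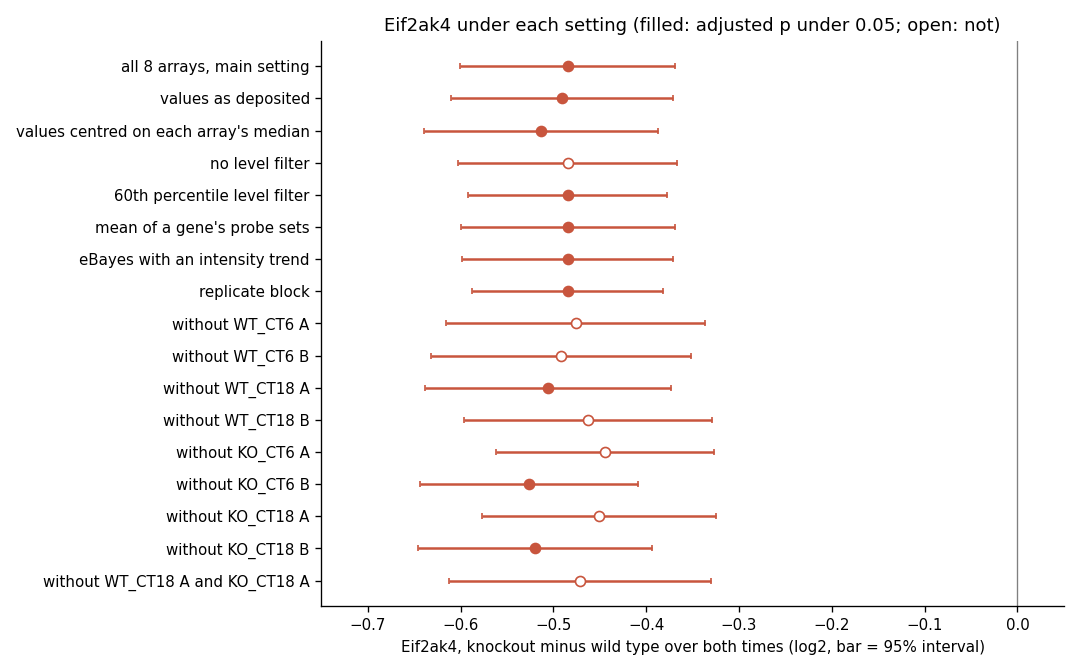
Difference of Eif2ak4 between KO and WT over both times on the log2 scale under the main setting and 16 others, with bars for the 95% interval of each fit; filled points had an adjusted p under 0.05. Every point lies between -0.53 and -0.44 and no bar reaches 0, and 7 of the 16 alternatives are open points.

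Fsip1, the neighbour on the other side of Gpr176, had higher values in the knockout, without passing the test. Its log2 level was 7.17 and 7.20 in WT at CT6 and 7.25 and 7.13 in WT at CT18. In the knockout it was 7.29 and 7.49 at CT6 and 7.26 and 7.42 at CT18. All KO arrays lay above all WT arrays, by a gap of 0.015, smaller than the gap between arrays of any group. Fsip1 and Eif2ak4 were the 2 of 8 neighbours, and 2 of the 6 tested, whose genotypes did not overlap over both times (4.22% of all genes tested). At CT6 and at CT18 alone Bub1b, below the level filter, joined them, giving 3 of 8 neighbours. Among the 6 tested it was 2 at each time, beside 32.8% of all genes tested at CT6 and 45.8% at CT18. The difference over both times was 0.18 ± 0.06 (95% interval 0.05 to 0.31; limma adjusted p = 0.353). It was 0.21 ± 0.08 at CT6 and 0.15 ± 0.08 at CT18 (adjusted p = 0.975 and 0.451). The difference kept its sign when any 1 array was left out, between 0.13 and 0.23. Of 8 measured genes of the sperm sheath list 1 lay above the level filter, Spa17, which stood at 0.06 ± 0.05 over both times (adjusted p = 0.677).

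Thbs1, beyond Fsip1, differed between the pools of each group, and its genotypes overlapped. Its log2 level was 6.83 and 7.18 in WT at CT6, 6.99 and 6.69 in WT at CT18, 7.06 and 6.74 in KO at CT6 and 6.51 and 6.70 in KO at CT18. The arrays of a group lay 0.18 to 0.35 apart with overlap of the genotypes at both times. KO minus WT over both times was -0.17 ± 0.10 (95% interval -0.40 to 0.06; limma adjusted p = 0.508). Without both CT18 A arrays it was -0.05. The mean log2 level of 9 leptomeningeal markers (collagens and other genes of the brain's covering membranes) differed between the same pools. It was 7.13 and 7.45 in WT at CT6, 7.63 and 7.07 in WT at CT18, 7.63 and 7.23 in KO at CT6 and 7.06 and 7.07 in KO at CT18. In all 4 groups the array with the higher Thbs1 value also had the higher marker level, by almost nothing in KO at CT18, and the part of these markers in the Thbs1 values was not tested. Of those 9 markers 3 were below the level filter and 0 of the 6 tested were called between genotypes (0.0241% of all genes over both times). In pooled tissue, fewer cells of a type and less RNA per cell cannot be told apart. Of 8 tested genes of the thrombospondin list, 0 were called between genotypes over both times, beside 0.0241% of all genes. Their median difference was -0.06, beside -0.01 for all genes tested, with values from -0.17 (Cacna2d1) to 0.06 (Thbs2). Thbs2, a second thrombospondin, stood at 0.06 ± 0.06 and Cd47, a receptor of Thbs1, at -0.12 ± 0.06 (adjusted p = 0.704 and 0.470).

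Srp14 and Bmf, the next genes after Eif2ak4, had intervals close to 0. Srp14 had log2 levels of 9.25 and 9.16 in WT at CT6, 9.26 and 9.13 in WT at CT18, 9.18 and 9.20 in KO at CT6, and 9.35 and 9.22 in KO at CT18. The KO and WT values overlapped at both times. Its difference over both times was 0.03 ± 0.05 (95% interval -0.07 to 0.14; limma adjusted p = 0.787), and with each array centred on its median it was -0.0075. Of 6 tested genes of the signal recognition particle and its receptor 0 were called (0.0241% of all genes over both times), with differences from -0.06 to 0.07.

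Bmf stayed between 7.01 and 7.18 in the 8 arrays. Its values were 7.01 and 7.14 in WT at CT6, 7.03 and 7.07 in WT at CT18, 7.18 and 7.08 in KO at CT6 and 7.06 and 7.08 in KO at CT18. KO minus WT was 0.04 ± 0.04 (95% interval -0.06 to 0.14; limma adjusted p = 0.749). Of 11 tested genes of the BCL2 family list 0 were called between genotypes, beside 0.0241% of all genes over both times. Their median difference was 0.02, beside -0.01 for all genes tested.

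Bub1b lay under the level filter and was therefore read from the fit with no filter. Its log2 level was 6.77 and 6.85 in WT at CT6, 6.72 and 6.65 in WT at CT18, 6.90 and 6.95 in KO at CT6 and 6.48 and 6.62 in KO at CT18. The KO arrays lay above the WT arrays at CT6 and below them at CT18. An opposite order at CT6 and CT18, in either direction, was found in 4.36% of the genes tested, which do not include Bub1b. KO minus WT was 0.12 ± 0.06 at CT6 and -0.14 ± 0.06 at CT18 (limma adjusted p = 0.997 and 0.529 with no filter), and over both times -0.01 ± 0.05. Of 10 measured genes of the spindle checkpoint and of dividing cells 7 also lay under the filter. Between genotypes 0 of the 3 tested were called (0.0241% of all genes over both times). Mki67, a marker of dividing cells, had a mean log2 level of 6.01.

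Plcb2, also under the filter, ranged from 6.08 to 6.36. Its values were 6.14 and 6.24 in WT at CT6, 6.16 and 6.22 in WT at CT18, 6.30 and 6.15 in KO at CT6 and 6.08 and 6.36 in KO at CT18. The genotypes overlapped at both times, and the difference over both was 0.03 ± 0.07 (95% interval -0.12 to 0.18). Of 9 tested genes of phospholipase C beta signalling 0 were called between genotypes, beside 0.0241% of all genes over both times. The related enzymes Plcb1, Plcb3 and Plcb4 stood at -0.11 ± 0.04, -0.09 ± 0.06 and -0.08 ± 0.05 (limma adjusted p = 0.388, 0.566 and 0.546).

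Pak6 had similar values in both genotypes and fell at night. Its log2 level was 8.48 and 8.48 in WT at CT6, 8.28 and 8.28 in WT at CT18, 8.35 and 8.50 in KO at CT6 and 8.20 and 8.29 in KO at CT18. Every CT18 array lay below every CT6 array, as in 8.30% of genes tested in this direction. KO minus WT over both times was -0.05 ± 0.04 (95% interval -0.15 to 0.05; limma adjusted p = 0.694). CT18 minus CT6 over both genotypes was -0.19 ± 0.04 (adjusted p = 0.0190), with -0.20 ± 0.06 in WT and -0.18 ± 0.06 in KO.

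Pak6 was the 1 neighbour of 6 tested that was called between night and day, where 16.8% of all genes were called and 6.79% were lower at night, so the neighbours' share was near that of all genes. The call was lost with each array centred on its median (-0.18 ± 0.06; limma adjusted p = 0.0508) and in 6 of 8 cases when 1 array was left out, namely each WT array, KO at CT6 B and KO at CT18 A, with differences from -0.23 to -0.15. Without both CT18 A arrays the adjusted p was 0.131. Over the 9 marker lists 13 of 58 tested markers were called lower at CT18 and 6 higher. The mean level of the SCN neuron markers differed by -0.30 between CT18 and CT6 (6 of 11 lower, 3 higher). Single markers of this list ran from -2.67 (Prok2) to 1.29 (Avpr1a) with a median of -0.19. The mean alone therefore does not show a change in the number of neurons. The mean level of the leptomeningeal and oligodendrocyte markers differed by -0.15 each (0 of 6 and 1 of 9 lower). For the endothelial and mural markers it differed by -0.11 (3 of 9 lower). The part of these markers in the Pak6 difference was not tested. Of 10 tested genes of the p21-activated kinase list 1 rose and 0 fell at CT18. This share was not above the 16.8% of all genes called in either direction. The one that rose was Pak7, the gene of the related kinase PAK5 (0.40 ± 0.04; adjusted p = 0.000167). Between genotypes 0 of the 10 were called, beside 0.0241% of all genes over both times.

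With no level filter, where 8.55% of genes were called between night and day, Bub1b was called beside Pak6. It fell by 0.25 ± 0.05 at CT18 (limma adjusted p = 0.0107 with no filter), with -0.12 ± 0.06 in WT and -0.38 ± 0.06 in KO. Every CT18 array of Bub1b lay below every CT6 array, as in 8.30% of genes tested in this direction, which do not include Bub1b. Of the other neighbours, Thbs1 stood at -0.23 ± 0.10 (adjusted p = 0.158), and Fsip1, Eif2ak4, Srp14, Bmf and Plcb2 had night minus day differences between -0.04 and 0.04. Gpr176, in contrast, rose at CT18 in both genotypes, by 0.46 ± 0.07 in WT and 0.44 ± 0.07 in KO (adjusted p = 0.00436 and 0.00507).

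**Figure D4:**
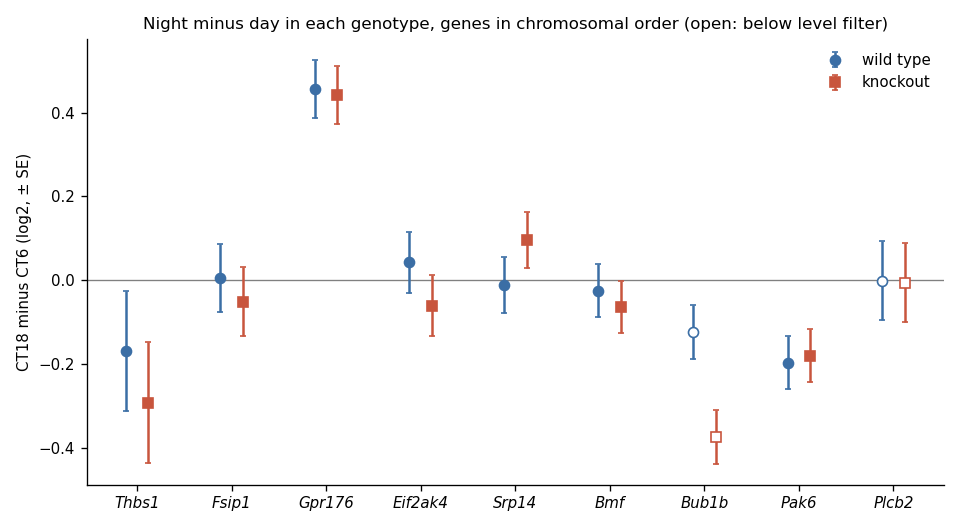
CT18 minus CT6 on the log2 scale in WT (blue circles) and KO (red squares) for Gpr176 and its neighbours in chromosomal order, with bars for the standard error of the fit. Gpr176 stands at 0.46 and 0.44, Pak6 at -0.20 and -0.18, and Eif2ak4 at 0.04 and -0.06; open points lay below the level filter.

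The neighbourhood was then followed outward in gene order, to ask how far from Gpr176 a difference between genotypes could be seen. Of 50 protein-coding genes within 25 places on either side, 46 were measured and 31 tested. Besides the 8 neighbours, 25 tested genes in this window had differences over both times between -0.13 and 0.11. Of these 25, 0 were called (smallest limma adjusted p = 0.368), beside 0.0241% of all genes. At an unadjusted p under 0.05 there were 3 of these 25, beside 12.0% of all genes tested. At single times 0 of the 25 were called (0.00803% of all genes at each time), with differences from -0.15 to 0.08 at CT6 and -0.12 to 0.21 at CT18.

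The size of the differences can be set beside that of all genes. The median size (without sign) over both times was 0.0323 for the 27 tested genes at places 3 to 25, 0.0199 for 16 at places 26 to 50 and 0.0429 for 48 at places 51 to 100. It was 0.0456 for all genes tested. Of the 4 genes at places 1 and 2, Eif2ak4 and Fsip1 had the differences of -0.48 and 0.18, Thbs1 that of -0.17 and Srp14 that of 0.03. On chromosome 2 as a whole 11.5% of 999 tested genes had an unadjusted p under 0.05, within the range of 9.91% (chromosome 7) to 16.3% (chromosome 12) over the chromosomes.

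**Figure D5:**
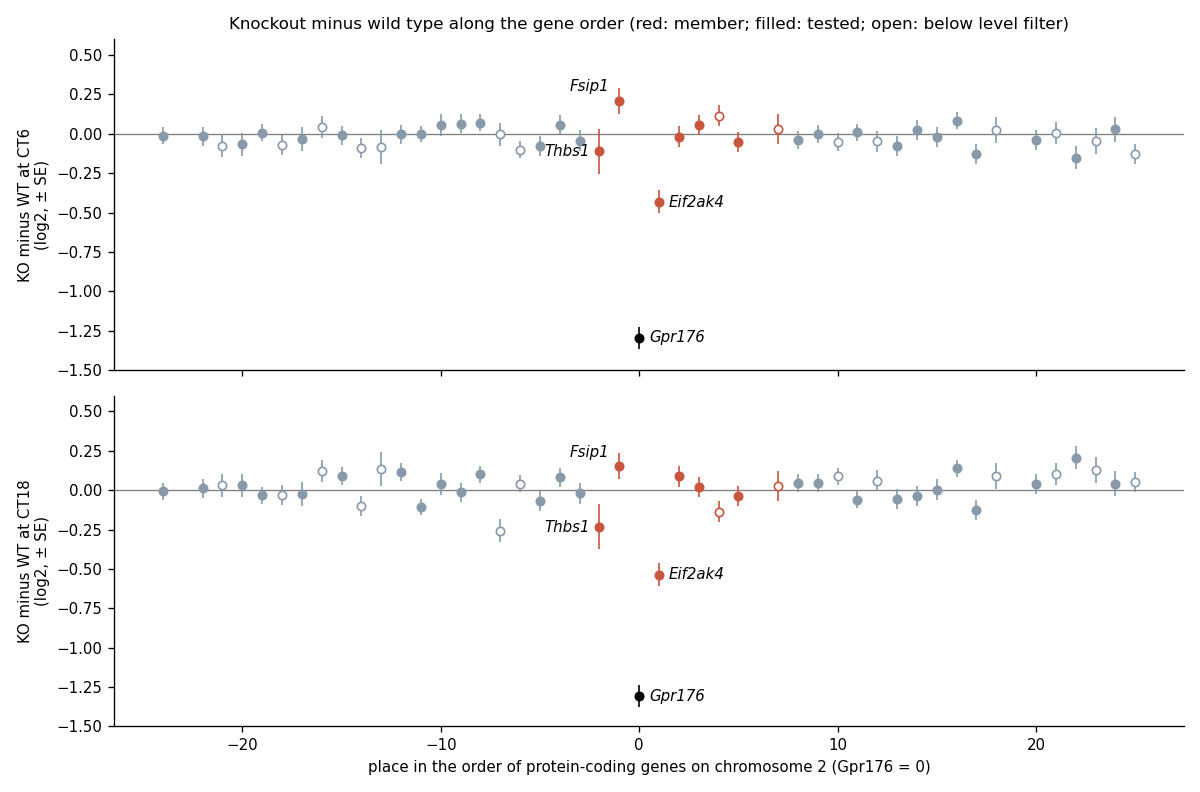
KO minus WT at CT6 (top) and CT18 (bottom) on the log2 scale for the measured genes within 25 places of Gpr176 in gene order, with bars for the standard error of the fit; the neighbours are red, Gpr176 is black and open points lay below the level filter. Gpr176 lies near -1.30 and Eif2ak4 at -0.43 and -0.54, apart from the other genes of the window.

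The genes that work with Eif2ak4 in the amino acid and stress response were read from a list of 16 tested genes. Between genotypes 0 of the 16 were called at either time or over both. Of all genes, 0.00803% were called at each time and 0.0241% over both, so 0 of 16 does not show an unchanged pathway. The median difference over both times was -0.01, the same to 2 decimals as for all genes tested. The other eIF2 alpha kinases Eif2ak1 and Eif2ak3 stood at -0.08 ± 0.05 and -0.06 ± 0.06 (limma adjusted p = 0.481 and 0.718), and Eif2ak2 lay below the level filter. Gcn1, the activator of GCN2, was at 0.03 ± 0.05 (adjusted p = 0.811). Atf4, the transcription factor translated when eIF2 alpha is phosphorylated, was at 0.10 ± 0.04 (adjusted p = 0.397). Its targets Asns, Ddit3 and Chac1 stood at -0.03 ± 0.04, -0.05 ± 0.04 and -0.01 ± 0.05 (adjusted p = 0.793, 0.566 and 0.948). Over the 8 partner lists together, 0 of 64 tested genes were called between genotypes, beside 0.0241% of all genes over both times. At an unadjusted p under 0.05 there were 8 of 64 over both times, a share near the 12.0% of all genes tested.

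Cell type markers were measured beside these results. Of 58 tested markers in 9 lists 0 were called between genotypes over both times, beside 0.0241% of all genes. An unadjusted p under 0.05 was found for 12 of 58, beside 12.0% of all genes tested. List medians lay between -0.11 (oligodendrocytes) and 0.12 (neurons of other hypothalamic nuclei). All 9 oligodendrocyte and all 8 astrocyte markers had negative differences, down to -0.14, beside 6983 of the 12452 genes tested. Markers of a list were read in the same pools and are not independent counts. The SCN neuron median was 0.01. The mean level of the oligodendrocyte markers ranged from 9.68 to 10.1 in WT arrays and from 9.72 to 10.0 in KO arrays. The part of cell makeup in the Eif2ak4 difference of -0.48 was not tested.

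By Pearson r over the 8 arrays, the tested genes most like Eif2ak4 were Nbeal1 (r = 0.977) and Tmem185b (0.963), and Gpr176 came at place 35 with 0.913. Those most like Fsip1 were Tssc4 (0.988) and Pcdhb6 (0.961), and its r with Gpr176 was -0.77. Thbs1 was most like Ccp110 (0.967) and Cmtm5 (0.954). These values are the highest of 12451 comparisons for each gene over 8 arrays that share 4 groups, and are given as a description.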

How the data were processed

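The authors deposited 1 table of log2 values for 28853 probe sets and 8 arrays. Background correction, summarisation and normalization of the scanner signals are not given in the sources used here. Per the labels' protocols, RNA was column-purified, amplified with a whole-transcript kit and labelled with biotin. Probe sets were named from the platform annotation, which listed 21789 with exactly 1 symbol, and 0 probe sets with several symbols named a neighbour. Gene order came from RefSeq, assembly GRCm38.p6.

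The 8 columns were quantile normalized in limma 3.58.1 under R 4.3.3. The brightest probe set stood for each gene. A level filter at the 40th percentile of the probe sets' means removed 7486 genes. A model with 1 mean per group left 4 residual degrees of freedom, and variances were moderated across genes. The procedure was tested on simulated data. Besides the main setting, 18 alternatives were tried. Arrays were not paired by letter, since the correlations of A minus B between groups ran from -0.22 to 0.26. The members and lists were chosen with earlier results of these data known. All 8 neighbours, Gpr176, called neighbourhood genes and, for the 3 neighbours with the smallest p, the 2 genes most like each were named by rule. Partner genes of the neighbours fall outside that rule, which names none where none is called, and were chosen for naming after their values were seen. Precision is limited by 2 arrays per group.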

Additional observations from a re-analysis of the deposited data

Results flagged for a closer look

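Bub1b was the 1 neighbour whose KO arrays all lay above the WT arrays at CT6 and all below them at CT18. An opposite order at CT6 and CT18, in either direction, was found in 4.36% of the genes tested, which do not include Bub1b. The difference of the KO effect at CT18 from that at CT6 was -0.25 ± 0.09 on the log2 scale. In the fit with no level filter its unadjusted p was 0.0223 and its limma adjusted p 0.968, so the difference itself did not pass the test. Bub1b lay under the level filter. With 1 array left out the value ranged from -0.32 to -0.18, and without both CT18 A arrays it was -0.15.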

How the results depend on the processing

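The number of neighbours called between genotypes over both times was 1 (Eif2ak4). It was 0 with no level filter and without both CT18 A arrays, a setting chosen after seeing the data, and ranged from 0 to 1 when 1 array was left out. At CT18 the number rose from 0 to 1 (Eif2ak4) with each array centred on its median and with the 60th percentile filter. At CT6 and for the interaction it was 0 in every setting fitted. Between night and day the number of 1 (Pak6) became 0 with median centring and without both CT18 A arrays, became 2 (Pak6 and Bub1b) with no level filter, and ranged from 0 to 1 when 1 array was left out. The causes of these losses were not tested. With the replicate block (letter A or B in the fit) Eif2ak4 stayed called (limma adjusted p = 0.00990) and the numbers of neighbours called were unchanged; the letters were not shown to pair the arrays.

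Over all genes, the 3 calls between genotypes over both times became 6 with the values as deposited, 5 with median centring, 1 with no filter, 6 with the 60th percentile filter, 7 with an intensity trend, 1 without both CT18 A arrays and 1 to 4 when 1 array was left out. The single call became 2 at CT6 as deposited, with median centring and with the block, and 3 at CT18 with median centring and with the 60th percentile filter. The 2096 night and day calls became 1378 without KO at CT18 B and 1070 without both CT18 A arrays. The differences of Eif2ak4 and Fsip1 over both times kept their sign in all 16 other settings, from -0.53 to -0.44 and from 0.13 to 0.25.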
